A study of Homo sapiens with 8 samples.

Results

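The genes of the IFN-γ receptor, the Janus kinases and the STAT transcription factors described here are IFNGR1, IFNGR2, JAK1, JAK2, TYK2, STAT2, STAT3, STAT5B and STAT6. They were taken by gene symbol from the count table, whatever their values, and are 9 of the 60664 genes in it. All 9 had counts in every library, and all 9 were among the 15066 genes with enough counts to test. The cells were A549, an established line from a human lung adenocarcinoma. They were left untreated, given 20 ng of IFN-γ (the labels state no volume), given AX-0085, which is a kinase inhibitor, at 0.5 uM, or given both, with AX-0085 added after 24 h of IFN-γ and RNA taken 24 h later. Each of the 4 groups had 2 libraries, made from mRNA with a stranded kit. The study calls the libraries of a group duplicates, and neither the labels nor the methods say that they came from separate cultures, so the p-values below measure the spread between these libraries, which may be technical.

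IFN-γ binds a receptor built from IFNGR1, the chain that holds the ligand, and IFNGR2, the chain that completes the signaling complex. JAK1 is bound to IFNGR1 and JAK2 to IFNGR2, and once brought together they phosphorylate the receptor and the STAT proteins docked on it, which then move to the nucleus and bind DNA. The same kinases serve many other receptors: TYK2 and JAK1 those of type I interferons, which signal through STAT2, JAK1 and JAK2 those of the IL-6 family, which signal through STAT3, and JAK1 those of IL-4 and IL-13, which signal through STAT6, while STAT5B answers growth hormone, prolactin and many cytokines. A kinase inhibitor acts on the activity of these proteins, whereas the counts measure RNA and not protein.

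Total counts lay between 20672828 and 29978251 per library, and a member had between 222 and 9775 counts in a library. Levels are given as CPM, which are counts scaled to library size with TMM factors. By library size alone, without TMM factors, 3 counts correspond to between 0.100 and 0.145 CPM. The libraries carried the keratins of an epithelial line, with at least 32475 counts of KRT8, at least 21681 of KRT18 and at least 65534 of KRT7 in each, while EPCAM was low, at 7 to 229 counts, and CDH1 had 203 to 2557. Scaled by library size only, the 6 epithelial markers summed to 9157 to 9532 CPM in untreated cells and 6267 to 6776 in cells given IFN-γ. The sums were 5903 to 6200 CPM for AX-0085 alone and 7226 to 7620 CPM for the combination. TMM factors did not enter these sums. The factors were lower in the IFN-γ libraries (0.916 and 0.963) than in those of the combination (1.044 and 1.001), so the gap between those groups depends on the scaling. In cells given IFN-γ, 5 of the 6 were lower than in untreated cells. Of 5 markers of other cell types, CD3E and MS4A1 were at 0 counts in every library, PTPRC and PECAM1 reached at most 1 and 6, and COL1A1 had 71 to 267. By library size alone, the 5 summed to 9.20 to 10.8 CPM in untreated cells, 2.79 to 3.97 with IFN-γ, 9.41 to 9.80 with AX-0085 and 7.21 to 8.37 with both. The part of these shifts in the results below was not tested, and in RNA of whole cultures fewer cells and less RNA per cell cannot be told apart.

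The promoters of STAT2, STAT3 and TYK2 are shown because STAT2 and STAT3 had the largest changes among the 9 genes and TYK2 fell where STAT2 rose. The sequences are from RefSeq (build GRCh38.p14) and run 5′ to 3′ on the minus strand, where all 3 genes lie; each is the stretch of the 250 bases before the RefSeq start that touches no exon of GENCODE 44. Capitals mark GC boxes (GGGCGG, or CCGCCC on the other strand) and CCAAT boxes (CCAAT, or ATTGG on the other strand).
STAT2, chr12:56360204-56360357: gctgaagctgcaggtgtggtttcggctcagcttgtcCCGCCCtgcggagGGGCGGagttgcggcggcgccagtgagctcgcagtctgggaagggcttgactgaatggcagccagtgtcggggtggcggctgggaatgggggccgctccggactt
STAT3, chr17:42388541-42388692: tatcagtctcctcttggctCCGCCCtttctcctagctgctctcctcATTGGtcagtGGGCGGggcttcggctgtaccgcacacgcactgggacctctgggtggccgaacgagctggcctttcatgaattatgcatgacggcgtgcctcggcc
TYK2, chr19:10380609-10380822: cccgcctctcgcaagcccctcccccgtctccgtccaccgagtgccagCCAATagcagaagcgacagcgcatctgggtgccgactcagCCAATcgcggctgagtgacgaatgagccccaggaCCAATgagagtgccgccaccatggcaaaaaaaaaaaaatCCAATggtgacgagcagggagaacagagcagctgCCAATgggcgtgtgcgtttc
All 9 genes had a window in the RefSeq table, which runs from 250 bases before to 50 bases after a start, with 15 windows in all because JAK1, JAK2 and IFNGR1 have several starts. The palindromic core that STAT dimers bind (TTCNNNGAA, the GAS motif) was in 7.66% of the 35116 windows of all genes, the wider spacing preferred by STAT6 (TTCNNNNGAA) in 6.44%, and the interferon-stimulated response element (GAAANNGAAA, both strands searched) in 3.57%, and no window of the 9 genes held any of them. GC boxes, present in 45.0% of all windows, were in 9 of the 15 windows, and CCAAT boxes, present in 34.6%, were in 4, those of TYK2, STAT2, STAT3 and STAT6. The window of TYK2 held 6 CCAAT boxes and no GC box, and the window of STAT3 held both kinds. Such matches are letters in a window and were not tested for binding.

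In untreated cells the order of levels per kilobase of exon was led by JAK1, at 24.7 CPM per kb, followed by STAT3 at 20.7 and STAT6 at 17.8. IFNGR2 (8.72) and IFNGR1 (8.23), on the same scale, did not differ beyond the spread of their libraries, and neither did STAT5B (5.41) and TYK2 (5.40). The lowest per length were STAT2 at 1.98 and JAK2 at 1.30 CPM per kb. On this scale the kinase bound to IFNGR1 was the most abundant of the 9 and the kinase bound to IFNGR2 the least.

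This order depends on how much of a gene could be counted, because few reads from within another gene reached the table. Of the protein-coding genes that lie wholly inside a gene on the opposite strand, 98.1% (1133 of 1155) had 0 counts in all 8 libraries, against 12.3% (2232 of 18187) of those inside no other gene. In GENCODE 44, 55.3% of the exon bases of IFNGR2 (chr21:33403413-33479348, plus strand) lie inside TMEM50B, and 47.4% of those of JAK2 (chr9:4984390-5129948, plus strand) lie inside INSL6. Smaller shares of STAT5B (5.94%), JAK1 (4.99%) and STAT6 (4.33%) lie inside other genes, and none of IFNGR1, TYK2, STAT2 or STAT3. Per kilobase of exon outside other genes, IFNGR2 stood at 19.5 CPM per kb in untreated cells, where its libraries overlapped those of STAT3 (20.7) and STAT6 (18.6), and JAK2 stood at 2.47, above STAT2. On both scales JAK1 was the highest of the 9 in untreated cells. The counts were taken to cover whole gene spans, so reads in introns may add to a level per kilobase of exon. The share of such reads was not tested.

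**Figure D1:**
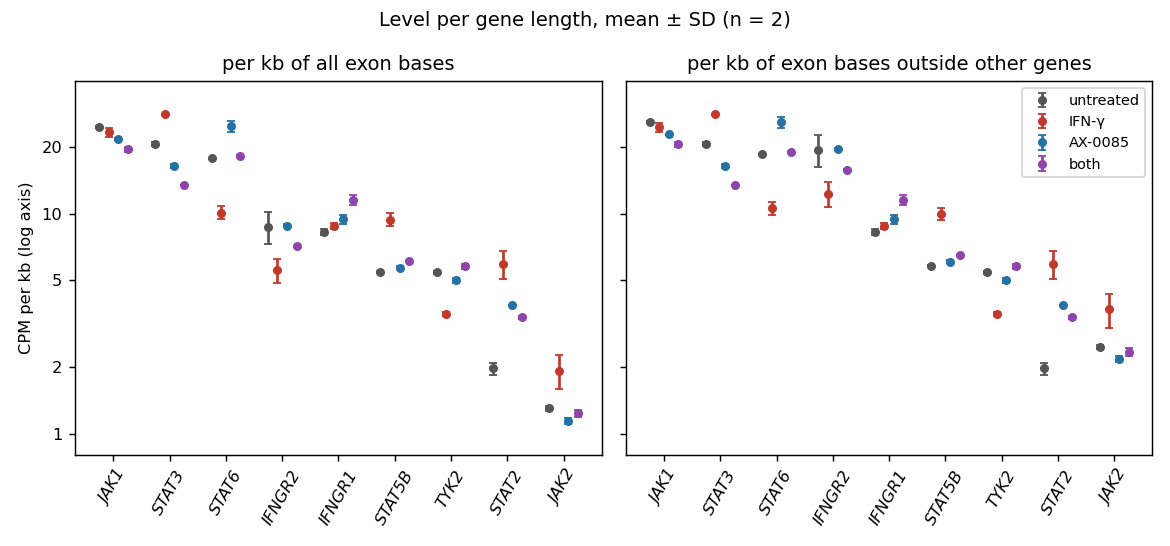
Level of each gene in CPM per kilobase on a log axis, per kilobase of all exon bases (left) and of exon bases outside other genes (right), as mean and SD of 2 libraries in each group. JAK1, STAT3 and STAT6 were the highest per length in untreated cells on the left, and IFNGR2 and JAK2 moved up on the right, IFNGR2 from 8.72 to 19.5 and JAK2 from 1.30 to 2.47 CPM per kb in untreated cells.

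With IFN-γ alone the order changed: STAT3 led at 28.2 CPM per kb of all exon bases, above JAK1 at 23.4, while STAT6 (10.1), STAT5B (9.39) and IFNGR1 (8.82) were close, with overlap between the libraries of neighbours. STAT2, at 5.88 CPM per kb, overlapped with IFNGR2 at 5.52, and TYK2 (3.50) and JAK2 (1.93) were the lowest on this scale; outside other genes, the libraries of JAK2 (3.66) and TYK2 overlapped. With AX-0085 alone STAT6 was the highest of the 9, at 24.9 CPM per kb, followed by JAK1 at 21.8 and STAT3 at 16.4. With both treatments JAK1 (19.6), STAT6 (18.2) and STAT3 (13.5) led, and IFNGR1 reached 11.5 CPM per kb. Per kilobase of exon outside other genes, IFNGR2 instead lay above STAT3 in both of these groups, at 19.6 CPM per kb with AX-0085 alone and 15.8 with both. With IFN-γ alone it stood at 12.3 on that scale, above STAT6 (10.5).

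Against untreated cells, IFN-γ raised STAT2 close to 3-fold, raised STAT5B, JAK2 and STAT3 by less than 2-fold, and lowered STAT6, IFNGR2 and TYK2 by less than 2-fold. IFNGR1 and JAK1 did not pass the test. Each gene was tested by quasi-likelihood in edgeR, with p-values adjusted over all 15066 genes by the method of Benjamini and Hochberg. Log2 fold changes are given with their standard error (SE) or with an interval of 2 SE to either side, and a gene was said to pass both thresholds where the adjusted p was under 0.05 and the fold change over 2. By adjusted p alone, 4 of the 9 genes were higher with IFN-γ, where 32.1% of all genes tested were, and 3 were lower, where 36.0% were. Past both thresholds, 1 was higher (10.3% of all genes) and 0 were lower (17.2%). The median log2 fold change was 0.10 over the 9 genes and -0.06 over all genes tested. In this comparison the groups did not overlap for any of the 9 genes, which was so for 81.1% of all genes tested; over the 5 comparisons of 2 groups this share was between 70.7% and 82.7%.

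When AX-0085 was added to cells given IFN-γ, STAT3 fell about 2-fold, STAT2, JAK2, STAT5B and JAK1 fell by less, and STAT6, TYK2, IFNGR1 and IFNGR2 rose. All 9 genes passed the adjusted p threshold, 4 of them higher, where 33.7% of all genes tested were, and 5 lower, where 32.8% were. Past both thresholds 1 was lower (8.28% of all genes) and 0 were higher (16.5%). The median log2 fold change was -0.26 over the 9 genes and 0.03 over all genes tested. This comparison shares its IFN-γ libraries with the previous one, so that a high or low IFN-γ library enters both, in opposite directions.

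AX-0085 without IFN-γ also moved these genes. By adjusted p alone, STAT2 and STAT6 were higher than in untreated cells (26.7% of all genes tested were higher) and STAT3 and JAK1 were lower (26.6%), while 0 of the 9 passed both thresholds upward (6.41%) or downward (5.62%). The median log2 fold change was 0.02 over the 9 genes and 0.01 over all genes.

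**Figure D2:**
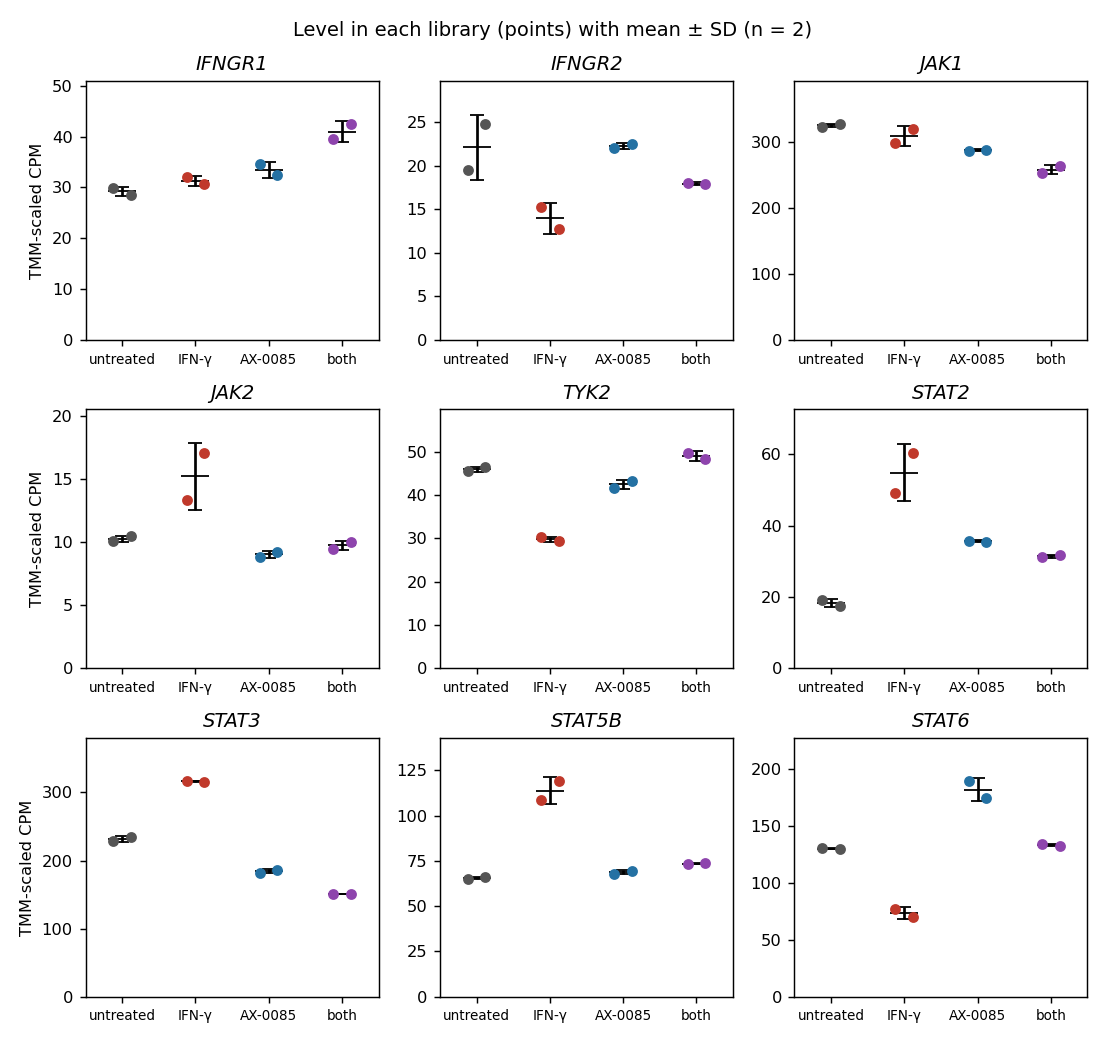
TMM-scaled CPM of each of the 9 genes by group, with a point for each library and the mean and SD of 2 libraries; each panel starts at 0. STAT2 was lowest in untreated cells (19.2 and 17.6 CPM) and highest with IFN-γ (49.1 and 60.5 CPM), STAT6 was lowest with IFN-γ and highest with AX-0085, and IFNGR1 was highest with both.

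Among the receptor chains, IFNGR1 had 29.9 and 28.6 CPM in untreated cells, 32.0 and 30.6 with IFN-γ, 34.6 and 32.4 with AX-0085, and 39.5 and 42.4 with both. The libraries of the 4 groups were in separate order, with the cells given both treatments at the top. The change with IFN-γ alone did not pass the test (log2 fold change 0.10, interval -0.06 to 0.26, edgeR adjusted p = 0.299; -0.02 with libraries scaled by size alone), and nor did that with AX-0085 alone (0.20, SE 0.08, edgeR adjusted p = 0.0514), although the latter passed when either IFN-γ library was left out of the model (adjusted p = 0.0442 and 0.0287). IFNGR1 was higher with both than with IFN-γ alone by 0.39 on the log2 scale (SE 0.08, edgeR adjusted p = 0.000746) and than untreated cells by 0.48 (SE 0.08, edgeR adjusted p = 0.000152). IFNGR1 lies at chr6:137197483-137219449 on the minus strand, with no exon base inside another gene.

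IFNGR2, the signaling chain, was lowest with IFN-γ. Its level was 19.5 and 24.8 CPM in untreated cells, 15.3 and 12.7 with IFN-γ, 22.1 and 22.5 with AX-0085, and 18.1 and 17.9 with both. The untreated and AX-0085 libraries overlapped, and both IFN-γ libraries were below all others. The fall with IFN-γ measured -0.66 on the log2 scale (SE 0.12, edgeR adjusted p = 0.000245). The rise when AX-0085 was added, by 0.37 (SE 0.12, edgeR adjusted p = 0.0163), rested on single libraries: without replicate 2 of IFN-γ it was 0.23 (edgeR adjusted p = 0.175), and without replicate 1 of both treatments it did not pass the test (0.36, adjusted p = 0.0706), nor without replicate 2 of both treatments (0.37, adjusted p = 0.0506). IFNGR2 was lower with both than in untreated cells (log2 fold change -0.29, SE 0.11, edgeR adjusted p = 0.0403), a call that held in 2 of the 8 fits that left out a library and was lost with DESeq2 (adjusted p = 0.0823). Without replicate 2 of untreated cells it was -0.12 (edgeR adjusted p = 0.401).

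The count ratio of the receptor chains within a library does not depend on how libraries are scaled to each other. IFNGR1 had 1.53 and 1.15 times the counts of IFNGR2 in untreated cells, 2.10 and 2.40 times with IFN-γ, 1.57 and 1.44 times with AX-0085, and 2.18 and 2.37 times with both. All 4 libraries given IFN-γ, with or without AX-0085, lay above all 4 without it.

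IFNGR2 sits in a row of cytokine receptor genes on chromosome 21 with IFNAR2, IL10RB and IFNAR1. IFNAR1, a chain of the type I interferon receptor, was lower with IFN-γ as well (log2 fold change -0.51, SE 0.11, edgeR adjusted p = 0.00115) and rose by 0.38 when AX-0085 was added (SE 0.11, edgeR adjusted p = 0.00857). IL10RB, a chain shared by the receptors of IL-10, IL-22 and type III interferons, had 3 to 19 counts in a library and did not pass either test. IFNAR2 had 3 counts in all 8 libraries together, and nearly its whole exon sequence is covered by another gene, so its level was not measured.

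JAK1, the kinase shared by most of these receptors, changed by at most 0.33 on the log2 scale between any of the groups compared. It had 323 and 327 CPM in untreated cells, 298 and 319 with IFN-γ, 286 and 288 with AX-0085, and 253 and 263 with both. The groups did not overlap, and their means fell from untreated to IFN-γ, AX-0085 and both. The change with IFN-γ was -0.08 on the log2 scale (interval -0.19 to 0.04, edgeR adjusted p = 0.254), and with libraries scaled by size alone it was -0.19 and passed the test (edgeR adjusted p = 0.0186). JAK1 was lower with both than with IFN-γ alone by 0.26 (-0.26, SE 0.06, edgeR adjusted p = 0.0013) and than untreated by 0.33 (-0.33, SE 0.06, edgeR adjusted p = 0.000229). With libraries scaled by size alone the former did not pass the test (-0.14, edgeR adjusted p = 0.0787). Its fall with AX-0085 alone was -0.18 (SE 0.06, edgeR adjusted p = 0.0169), a call lost when any library of those groups was left out, with adjusted p between 0.0563 and 0.0848.

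JAK2, the kinase of IFNGR2 and of the growth hormone and erythropoietin receptors, was higher with IFN-γ alone than in every other group. Its counts were 306 and 257 in untreated cells, 253 and 426 with IFN-γ, 222 and 246 with AX-0085, and 297 and 223 with both. In CPM these were 10.1 and 10.5, then 13.4 and 17.1, then 8.84 and 9.26, and then 9.50 and 10.0. Both IFN-γ libraries stood above the other 6, and they differed from each other more than the libraries of any other group. Without replicate 2 of IFN-γ, its log2 fold change against untreated cells went from 0.58 (edgeR adjusted p = 0.000725) to 0.42, with the edgeR adjusted p still under the threshold, and its change when AX-0085 was added ranged from -0.82 to -0.46 as single libraries were left out. With AX-0085 alone JAK2 differed by -0.18 (interval -0.43 to 0.06, edgeR adjusted p = 0.227), and with both, against untreated cells, by -0.08 (interval -0.32 to 0.16, edgeR adjusted p = 0.605).

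TYK2, which serves the receptors of type I interferons and of IL-12 and IL-23, was lower with IFN-γ, where JAK2 was higher. Its level was 45.6 and 46.4 CPM in untreated cells, 30.2 and 29.4 with IFN-γ, 41.6 and 43.2 with AX-0085, and 49.8 and 48.2 with both. The IFN-γ libraries were the lowest and the libraries of both treatments the highest. TYK2 fell with IFN-γ by 0.63 on the log2 scale (-0.63, SE 0.07, edgeR adjusted p = 4.41e-06) and rose by 0.72 when AX-0085 was added (SE 0.07, edgeR adjusted p = 1.369e-06). With both treatments against untreated cells its difference was 0.09 (interval -0.05 to 0.23, edgeR adjusted p = 0.274). TYK2 lies at chr19:10350533-10380608 on the minus strand.

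Within a library, JAK2 had 0.222 and 0.226 counts for each count of TYK2 in untreated cells, 0.442 and 0.583 with IFN-γ, 0.212 and 0.214 with AX-0085, and 0.191 and 0.208 with both. The ratio was therefore higher in the IFN-γ libraries than in the other 6, which lay between 0.191 and 0.226.

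STAT2, the partner of the type I interferon receptor that forms the ISGF3 complex with IRF9, changed most. Its counts were 581 and 432 in untreated cells, 930 and 1504 with IFN-γ, 898 and 942 with AX-0085, and 972 and 704 with both, which corresponds to 18.4 ± 1.15, 54.8 ± 8.02, 35.6 ± 0.224 and 31.4 ± 0.401 CPM (mean ± SD, n = 2). Every treated library was above both untreated ones, and the IFN-γ libraries were the highest. The rise with IFN-γ was 2.98-fold (log2 fold change 1.57, SE 0.10, edgeR adjusted p = 1.308e-08), and it ranged from 1.46 to 1.72 on the log2 scale as single libraries were left out.

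AX-0085 alone raised STAT2 by 1.93-fold (log2 fold change 0.95, SE 0.10, edgeR adjusted p = 4.403e-06), while upon addition to IFN-γ it lowered STAT2 by 0.81 on the log2 scale (-0.81, SE 0.10, edgeR adjusted p = 6.781e-06). Without replicate 1 of untreated cells the rise with AX-0085 alone was 1.03 and passed both thresholds. With both treatments STAT2 stayed above untreated cells by 0.77 (SE 0.10, edgeR adjusted p = 2.645e-05) and did not differ from AX-0085 alone past the threshold (-0.18, interval -0.38 to 0.01, edgeR adjusted p = 0.161), although in a fit of only those 2 groups it did (edgeR adjusted p = 0.0271). STAT2 lies at chr12:56341597-56360203 on the minus strand, with no exon base inside another gene.

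STAT3, which relays the IL-6 family, had 229 and 235 CPM in untreated cells, 316.6 and 315.6 with IFN-γ, 182 and 186 with AX-0085, and 151 and 150.4 with both. The groups were well apart, with the IFN-γ libraries at the top and those of both treatments at the bottom. STAT3 rose with IFN-γ by 0.45 on the log2 scale (SE 0.05, edgeR adjusted p = 4.83e-06) and fell by 1.07 when AX-0085 was added (-1.07, SE 0.05, edgeR adjusted p = 1.618e-09), a 2.09-fold fall to below the untreated level. The fall stood at 1.06 to 1.08 with each library left out in turn, so it is close to the 2-fold threshold, and glmTreat's test against a 2-fold change did not call it. AX-0085 alone lowered STAT3 by 0.33 (-0.33, SE 0.05, edgeR adjusted p = 0.000143), and both treatments lowered it against untreated cells by 0.62 (-0.62, SE 0.05, edgeR adjusted p = 4.563e-07). STAT3 lies at chr17:42313324-42388540 on the minus strand.

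STAT5B had 65.1 and 66.0 CPM in untreated cells, 108 and 119 with IFN-γ, 67.9 and 69.6 with AX-0085, and 73.3 and 73.5 with both. The IFN-γ libraries stood apart, and the other 6 lay between 65.1 and 73.5 CPM. STAT5B rose with IFN-γ by 0.80 (SE 0.06, edgeR adjusted p = 1.238e-07) and fell by 0.63 when AX-0085 was added (-0.63, SE 0.06, edgeR adjusted p = 1.359e-06). With AX-0085 alone its difference was 0.07 (interval -0.06 to 0.20, edgeR adjusted p = 0.394).

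STAT5B neighbours STAT5A, a paralog of near-identical coding sequence, so that reads of the 2 genes could be split between them in a way the counts do not show. STAT5A was raised by IFN-γ as well, by 0.56 (SE 0.13, edgeR adjusted p = 0.00172), and fell by 0.37 when AX-0085 was added (-0.37, SE 0.13, edgeR adjusted p = 0.0195). For each count of STAT5A, STAT5B had 11.8 ± 0.197 counts in untreated cells, 14.0 ± 0.899 with IFN-γ, 11.2 ± 0.839 with AX-0085 and 11.6 ± 0.129 with both (mean ± SD, n = 2).

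STAT6, the factor of IL-4 and IL-13, was lowest with IFN-γ. It had 130.3 and 129.7 CPM in untreated cells, 77.2 and 70.1 with IFN-γ, 189 and 174 with AX-0085, and 134 and 133 with both. The IFN-γ libraries were the lowest and the AX-0085 libraries the highest, and those of both treatments were next to the untreated ones. STAT6 fell with IFN-γ by 0.82 (-0.82, SE 0.06, edgeR adjusted p = 1.011e-07), rose with AX-0085 alone by 0.48 (SE 0.06, edgeR adjusted p = 2.437e-05), and rose with AX-0085 on top of IFN-γ by 0.86 (SE 0.06, edgeR adjusted p = 8.493e-08). Against untreated cells the difference with both was 0.03 (interval -0.09 to 0.16, edgeR adjusted p = 0.661). STAT6 and STAT2 lie on the same arm of chromosome 12, STAT6 at chr12:57095408-57132139, and both are on the minus strand.

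**Figure D3:**
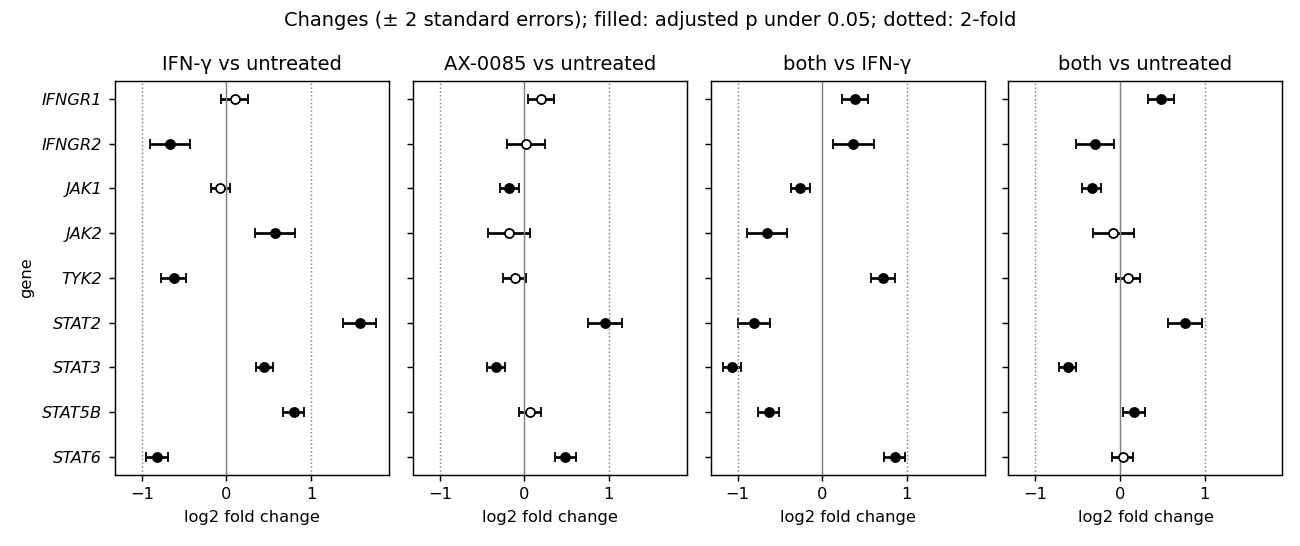
Log2 fold change of each gene with 2 standard errors to each side in 4 comparisons, with filled points where the adjusted p was under 0.05 and dotted lines at a 2-fold change. STAT2 lay beyond the line with IFN-γ (1.57) and STAT3 with AX-0085 on top of IFN-γ (-1.07).

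Ratios of counts within a library showed the shift among the STAT genes without any scaling. STAT3 had 1.76 and 1.81 counts for each count of STAT6 in untreated cells, 4.10 and 4.50 with IFN-γ, 0.963 and 1.07 with AX-0085, and 1.13 and 1.14 with both. STAT2 had 0.148 and 0.136 counts for each count of STAT6 in untreated cells, 0.636 and 0.863 with IFN-γ, 0.189 and 0.203 with AX-0085, and 0.233 and 0.239 with both. Both ratios were highest in the IFN-γ libraries, but with AX-0085 the first lay below the untreated libraries and the second above them.

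**Figure D4:**
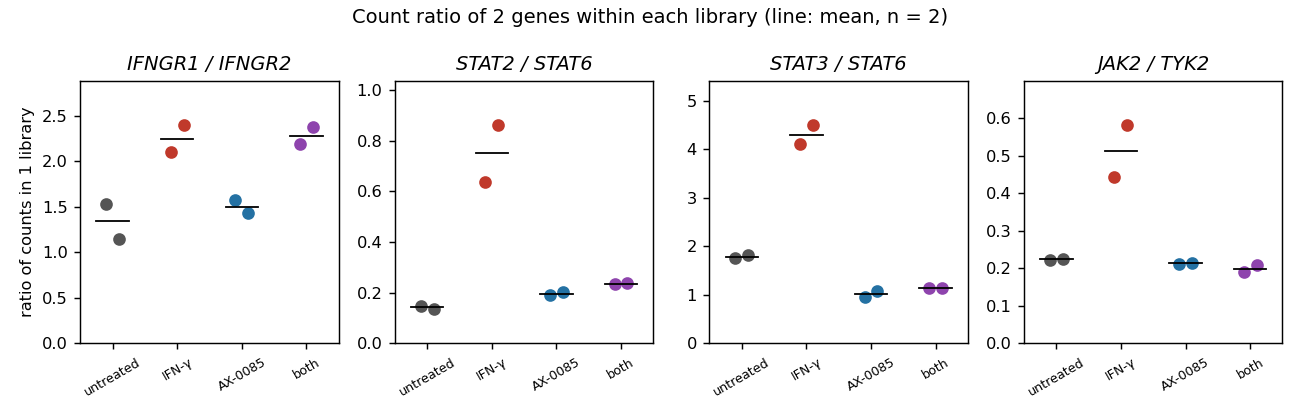
Ratio of the counts of 2 genes in each library (points) with the mean of 2 libraries (line), for IFNGR1 to IFNGR2, STAT2 to STAT6, STAT3 to STAT6 and JAK2 to TYK2. The IFN-γ libraries were the highest in 3 of the panels, and in that of the receptor chains the libraries of both treatments lay beside them.

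The interaction asked whether AX-0085 acted differently in cells given IFN-γ and in cells without it. By adjusted p alone, the effect of AX-0085 was lower with IFN-γ for 4 of the 9 genes, where it was for 23.6% of all genes tested, and higher for 2, where it was for 26.7%. Past both thresholds it was lower for 1 (6.46% of all genes) and higher for 0 (12.1%), and the median was -0.08 over the 9 genes and 0.05 over all genes tested. STAT2 had the largest difference, -1.76 on the log2 scale (SE 0.14, edgeR adjusted p = 4.249e-07), from 0.95 without IFN-γ to -0.81 with it. The effect on STAT3 was lower by 0.73 with IFN-γ (-0.73, edgeR adjusted p = 3.676e-06) and that on STAT5B by 0.70 (-0.70, edgeR adjusted p = 3.081e-05).

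TYK2 had the opposite interaction, 0.83 (edgeR adjusted p = 1.738e-05), and so did STAT6, 0.37 (edgeR adjusted p = 0.00366). That of JAK2, -0.47 (edgeR adjusted p = 0.0357), did not pass with DESeq2 (adjusted p = 0.076) or without replicate 2 of IFN-γ (-0.29, edgeR adjusted p = 0.16), and it held in 2 of the 8 fits that left out a library. For IFNGR1 the interaction was 0.19 (interval -0.03 to 0.41, edgeR adjusted p = 0.174) and passed the test with libraries scaled by size alone (0.31, edgeR adjusted p = 0.0452). For IFNGR2 it was 0.35 (interval 0.02 to 0.68, edgeR adjusted p = 0.0919), and it ranged from 0.17 to 0.51 as single libraries were left out. It passed with libraries scaled by size alone (0.47, edgeR adjusted p = 0.0227), without replicate 1 of untreated cells (0.51, edgeR adjusted p = 0.0114) and without replicate 1 of IFN-γ (0.47, edgeR adjusted p = 0.0364). For JAK1 the interaction was -0.08 (interval -0.24 to 0.08, edgeR adjusted p = 0.434).

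The effect of IFN-γ in the presence of AX-0085 was read between cells given both and cells given AX-0085 alone. Here 2 of the 9 genes were higher by adjusted p (17.3% of all genes tested), 4 were lower (17.4%), and 0 passed both thresholds upward (1.79%) or downward (1.73%). The values ran from -0.45 for STAT6 (edgeR adjusted p = 0.000135) to 0.29 for IFNGR1 (edgeR adjusted p = 0.0118), with STAT3 at -0.29 (edgeR adjusted p = 0.00108) and TYK2 at 0.21 (edgeR adjusted p = 0.0343). The calls of IFNGR2 (-0.31, edgeR adjusted p = 0.0496), JAK1 (-0.15, edgeR adjusted p = 0.0497) and TYK2 were lost with DESeq2 and when any library of either group was left out, and that of IFNGR1 without replicate 2 of either group (edgeR adjusted p = 0.103 and 0.126). The median was -0.15 over the 9 genes and -0.01 over all genes.

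Cells given both treatments differed from untreated cells in 6 of the 9 genes by adjusted p. IFNGR1, STAT2 and STAT5B were higher (28.1% of all genes tested were) and STAT3, JAK1 and IFNGR2 were lower (28.8%), with 0 past both thresholds upward (7.51%) or downward (7.23%). The call of STAT5B, 0.16 (edgeR adjusted p = 0.0423), did not hold with DESeq2 (adjusted p = 0.0765) and held in 2 of the 8 fits that left out a library (0.17 to 0.21 over all 8). The median was 0.03 over the 9 genes and 0.01 over all genes tested.

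Other genes of the JAK and STAT families described here were JAK3, STAT4 and STAT5A. JAK3, the kinase of the common gamma chain, had 50 and 59 counts in untreated cells, 17 and 24 with IFN-γ, 169 and 141 with AX-0085, and 165 and 115 with both. STAT4, which relays IL-12, had 331 and 333, 91 and 91, 522 and 583, and 433 and 335 counts in the same order. For both genes the IFN-γ libraries were the lowest. STAT4 fell with IFN-γ by 1.55 on the log2 scale (-1.55, SE 0.15, edgeR adjusted p = 7.709e-07) and rose by 1.79 when AX-0085 was added (SE 0.15, edgeR adjusted p = 2.012e-07). JAK3 fell by 1.09 (-1.09, SE 0.28, edgeR adjusted p = 0.0034) and rose by 2.48 (SE 0.24, edgeR adjusted p = 8.975e-07), and it was higher with AX-0085 alone than in untreated cells (1.58, SE 0.19, edgeR adjusted p = 1.495e-05).

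Receptor chains of other cytokines that use the same kinases were given by list. Of 3 tested chains of type I and III interferon receptors, counting IL10RB, 0 were higher with IFN-γ (32.1% of all genes tested were) and 2 were lower by adjusted p (36.0% were), among them IFNLR1 at -1.05 (edgeR adjusted p = 0.000126). Of 5 tested chains of the gp130 family, 2 were higher and 2 lower, beside the same 32.1% and 36.0% of all genes. OSMR, the oncostatin M receptor, was at 1.65 (edgeR adjusted p = 4.281e-10). IL11RA, with 13 and 17 counts with IFN-γ, was at -1.95 (edgeR adjusted p = 2.578e-05), but 99.7% of its exon bases are shared with another annotated gene, so few of its reads could be counted. IL6ST, which encodes gp130, had between 8134 and 15965 counts in a library.

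Of 4 tested chains of the IL-4, IL-13 and common gamma chain receptors, 2 were higher with IFN-γ (32.1% of all genes tested) and 1 was lower (36.0%). IL15RA, the private chain of the IL-15 receptor, rose from 64 and 61 counts to 977 and 1181 (log2 fold change 4.43, edgeR adjusted p = 2.95e-12), and IL4R, the chain that binds IL-4, rose by 1.37 (edgeR adjusted p = 2.06e-09). IL2RB, the beta chain of the IL-2 and IL-15 receptors, had 6 and 4 counts in untreated cells and fell to 0 and 1 with IFN-γ. It had 12 and 15 counts when AX-0085 was added, a rise past both thresholds. Only those libraries gave it enough counts to be tested, so that call was favoured by the filter and is not read as a result. IL2RG, the common gamma chain itself, had 0 counts in every library, but 97.5% of its exon bases are shared with another annotated gene, so it was not measured. IL4R rose while STAT6, the factor it activates, fell.

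Of the IL-10 family chains, IL20RB rose by 2.99 (edgeR adjusted p = 1.357e-08) and IL22RA1 fell by 1.92 (-1.92, edgeR adjusted p = 1.567e-06). When AX-0085 was added the largest falls among the receptor lists were those of IL15RA (-3.08, edgeR adjusted p = 2.83e-11), OSMR (-1.88, edgeR adjusted p = 1.983e-10) and IL20RB (-1.39, edgeR adjusted p = 4.502e-06). Besides IL2RB, IL11RA (2.65, edgeR adjusted p = 7.501e-07, with the same limit on its reads), IL6R (1.29, edgeR adjusted p = 1.787e-07) and IL22RA1 (1.01, edgeR adjusted p = 0.00122) rose past both thresholds.

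Of 13 ligands of JAK-coupled receptors, 5 had enough counts. Of the 5, 4 (IL6, IL11, LIF and IL7) rose with IFN-γ past both thresholds (10.3% of all genes tested did) and fell past both when AX-0085 was added (8.28%). Only its IFN-γ libraries gave IL6 enough counts to be tested, so its part in this number was set by that filter. IL11 went from 723 and 594 counts to 9039 and 11934 and back to 617 and 433, with a log2 fold change of 4.31 with IFN-γ (edgeR adjusted p = 2.498e-14) and, with AX-0085 added, -4.61 (edgeR adjusted p = 2.561e-14). IL6 had 0 counts in both untreated libraries, 48 and 66 with IFN-γ, 1 and 0 with AX-0085, and 0 in both with both treatments. LIF rose by 1.54 (edgeR adjusted p = 3.769e-10) and IL7 by 2.18 (edgeR adjusted p = 8.744e-06). IL6, IL11 and LIF bind receptors that signal through STAT3. IFNB1 had 0 counts in every library. The IFN-γ gene itself, IFNG, was also at 0, but it lies wholly inside an antisense gene, so it was not measured.

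Of the 16 tested inhibitors of the pathway, 7 were higher and 6 lower with IFN-γ by adjusted p, where 32.1% and 36.0% of all genes tested were, with a median log2 fold change of -0.01. SOCS3, which blocks JAK kinases at gp130 receptors, rose from 1150 and 1081 to 6434 and 7931 counts (3.01, edgeR adjusted p = 8.144e-12), and PTPN6, the phosphatase SHP-1, fell from 828 and 678 to 78 and 93 (-2.81, edgeR adjusted p = 9.163e-11). When AX-0085 was added SOCS3 fell by 3.28 (-3.28, edgeR adjusted p = 6.143e-12) and PTPN6 rose by 2.83 (edgeR adjusted p = 1.247e-10), while SOCS2 (-1.23) and SOCS6 (-1.18) fell and CISH (1.35) rose past both thresholds. SOCS1 had 0 counts in every library and lies wholly inside another annotated gene, so it was not measured.

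Of the 11 tested nuclear partners of STAT proteins, 6 were higher and 3 lower with IFN-γ by adjusted p (32.1% and 36.0% of all genes tested). NMI, which binds STAT proteins, rose from 263 and 197 to 2141 and 2616 counts (3.70, edgeR adjusted p = 1.904e-12), and the coactivators EP300 (1.08, edgeR adjusted p = 2.052e-07) and CREBBP (1.03, edgeR adjusted p = 2.34e-08) also passed both thresholds. IRF9, the DNA-binding partner of STAT2, had at most 23 counts in a library and most of its exon bases inside another gene. Its log2 fold change with IFN-γ was 3.32 (SE 0.64). Only its IFN-γ libraries, at 11 and 23 counts, gave it enough counts to be tested. Its calls with IFN-γ and on addition of AX-0085 were favoured by that filter, and the numbers of partners called include them. When AX-0085 was added, 9 of the 11 were lower (32.8% of all genes) and 0 higher (33.7%), with NMI at -2.35 and IRF9 at -2.17.

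**Figure D5:**
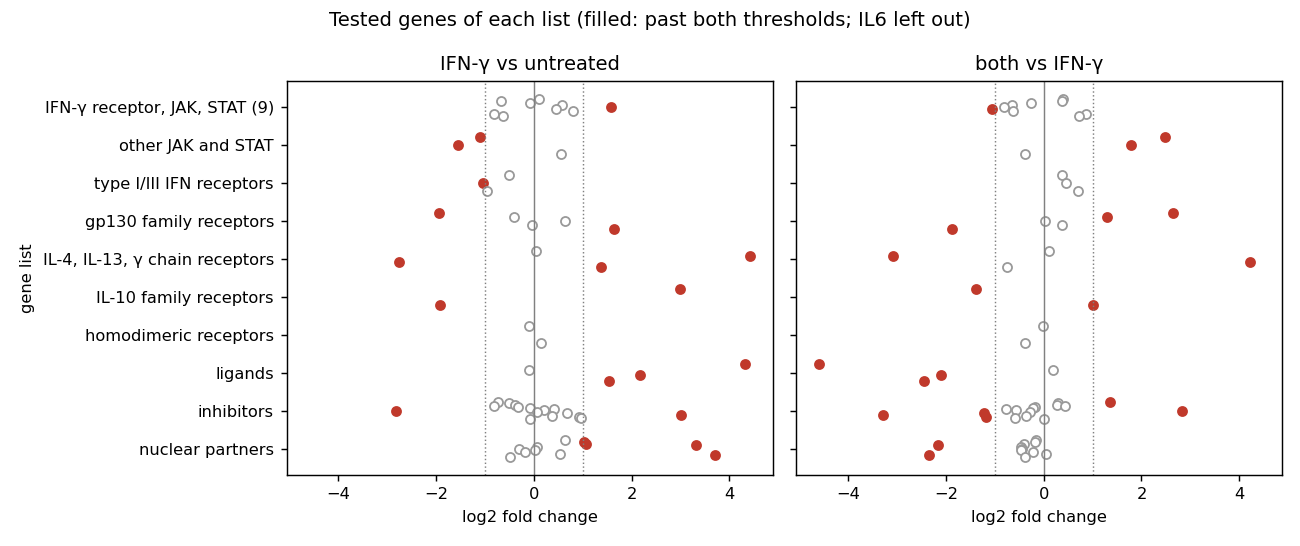
Log2 fold change of each tested gene of each list with IFN-γ (left) and with AX-0085 on top of IFN-γ (right), with filled points past both thresholds and dotted lines at a 2-fold change; IL6 is left out because 2 groups had 0 counts in both libraries. In the row of the IFN-γ receptor, JAK and STAT genes 1 of 9 points is filled on each side, and in the ligand row IL11 lies farthest out, at 4.31 and -4.61.

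Over the 8 libraries, each of the 9 genes had its own nearest genes by Pearson's r of log2 CPM, searched among the 10114 genes whose log2 CPM averaged 2 or more. The libraries share 4 groups and their depth, so that r is a description only. STAT3 was most like WDR75 (r = 0.999) and TRMT11 (0.998), STAT5B like CLINT1 (0.998) and DOCK4 (0.997), and STAT6 like GCNT3 (0.997) and AKR1A1 (0.995). JAK2 was most like TXLNG (0.992) and MAPK6 (0.988), TYK2 like JAG2 (0.993) and the unnamed gene ENSG00000279806 (0.993), and STAT2 like UBR2 (0.991; 0.99 for KDM5B). The receptor chains and JAK1 had lower values, with SNAI1 at 0.972 and the unnamed gene ENSG00000273230 at 0.974 for IFNGR1, ARFGAP1 and SDF4 at 0.98 each for IFNGR2, and CBX3 at 0.981 for JAK1. The number of genes with r over 0.95 was 9 for IFNGR1 and 619 for STAT5B, the smallest and the largest of the 9.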

How the data were processed

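mRNA of 8 A549 libraries was measured, 2 in each of 4 groups. The deposited counts are whole numbers per gene without normalization; the authors trimmed the reads with Trim Galore 0.6.7, mapped them to GRCh38 with STAR 2.7.9a and counted them with featureCounts. The annotation release and the strand setting of the counting are not given in the sources used here. From the zeros of genes inside other genes (1133 of 1155 on the opposite strand, 559 of 567 on the same), the table was taken to hold counts over whole gene spans on both strands, with reads shared by genes dropped. Positions and overlaps are those of GENCODE 44, which lists 60463 of the 60664 identifiers.

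Counts were filtered (filterByExpr), scaled by TMM and tested with edgeR 4.0.16 (quasi-likelihood test, all 8 libraries in 1 model of the 4 groups, Benjamini-Hochberg adjustment over 15066 genes) in R 4.3.3. The study's own tool, DESeq2 (1.42.0 here), was an alternative. The other alternatives were RLE factors, library size alone, no filter beyond 1 count, at least 10 counts in every library, only the groups compared, the replicate number as a block, each library left out in turn, glmTreat against a 2-fold change, exon bases outside other genes, and Spearman's correlation. The tests were tried on simulated counts before use. An exact permutation test of 1 gene with 2 against 2 libraries has a smallest two-sided p of 0.333, and none was used. The 2 libraries of a group differed by more than counting noise (chi-square per degree of freedom 8.55 to 27.7). Intervals and limits cover counting error and the spread of these libraries only.

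The 9 members and the gene lists were chosen with earlier results of these data known. Named beside the members were at most the 3 largest rises and falls past both thresholds of each list. These were taken with IFN-γ against untreated cells and with AX-0085 added to IFN-γ, among genes with at least 10 counts in 2 or more libraries. Also named were listed neighbours in the genome and the 2 genes most like each member. CREBBP, whose rise with IFN-γ was below the 3 largest of its list, was named outside this rule. IL6ST, IL2RG, IFNG, IFNB1 and SOCS1 were named after their values were seen. A few genes of these lists, or named by this rule, are not reported here.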

Additional observations from a re-analysis of the deposited data

Results flagged for a closer look

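The effect of AX-0085 differed between cells with and without IFN-γ for 6 of the 9 genes by the interaction term of edgeR's model (Benjamini-Hochberg adjusted p under 0.05). Of all 15066 genes tested, 7577 passed the same test. STAT2 stood out: AX-0085 raised it alone and lowered it upon addition to IFN-γ, with a difference of -1.76 on the log2 scale, and both libraries of each group lay on the side their mean gives. The difference was -0.73 for STAT3, -0.70 for STAT5B and -0.47 for JAK2, and it was 0.83 for TYK2 and 0.37 for STAT6. The call of JAK2 was lost with DESeq2, and its difference was -0.29 without replicate 2 of IFN-γ. With 2 libraries per group, single libraries could not be examined for outlying values.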

How the results depend on the processing

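Of the log2 changes of the 9 genes, 723 values under the alternatives kept their direction and their side of the threshold, 65 lost the call, 9 gained it and 4 changed sign. The sign changes were small values: IFNGR1 with IFN-γ was -0.0196 with libraries scaled by size alone, the interaction of JAK1 was 0.0361 with that scaling, IFNGR2 with AX-0085 was -0.1394 without replicate 1 of untreated cells (range -0.1394 to 0.1925 over the libraries left out), and JAK2 with both against untreated cells was 0.003 without replicate 1 of both treatments (range -0.1123 to 0.003). Scaling by library size alone moved the median of all genes with IFN-γ from -0.06 to -0.18 and upon addition of AX-0085 from 0.03 to 0.16, and the number of the 9 genes past both thresholds in the latter went from 1 to 0 (STAT3), as it did with glmTreat, whose null hypothesis is a 2-fold change. DESeq2 gave the same number past both thresholds in all 6 comparisons. That number with AX-0085 against untreated cells ranged from 0 to 1 with each library left out (1, STAT2, without replicate 1 of untreated cells). For both treatments against AX-0085, the number by adjusted p was 6, against 3 with DESeq2 and 3 with the replicate block, and 2 to 6 with each library left out; the cause was not tested. Same-numbered libraries of different groups did not deviate together (correlations -0.0738 to 0.0444 over 6 pairs of groups), so the replicate block rests on the labels only. The names of the count columns carry A for each replicate 1 and B for each replicate 2, and what the letters stand for is not given. The replicate block also lost the calls of IFNGR2 and STAT5B with both against untreated cells. Of the 18 genes most like a member by Pearson's r, 2 were also the most like by Spearman's correlation. Depth limits IRF9, IL10RB, IL2RB and IL6, which had few counts, and 2 libraries per group limit every value.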
